A study of Mus musculus with 6 samples.

Results

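Acute phase proteins are plasma proteins whose production changes during inflammation or tissue stress. The 10 genes described here are Hp, Saa3 and Lcn2, which are known to be made in adipose tissue, and Hpx, Saa1, Saa2, Saa4, Orm1, Apcs and Cp, which are known mainly from liver. All probe sets annotated with exactly 1 of these symbols were taken, which gave 18 of the 22690 probe sets on the array. The probe sets were taken by symbol alone, but the genes were chosen with earlier results of these data known. They were followed in epididymal white adipose tissue (WAT) of C57BL/6 mice, young adult males in the study, after timed sleep restriction (TSR). The TSR group held 3 samples from mice that gentle handling had kept awake for 6 h per day on 5 days, with tissue taken on the fifth of these days at ZT18 (18 h after lights on), and the control group held 3 samples from mice without TSR collected at the same hour. Each sample was hybridised to 1 array. Nothing in the labels says whether an array held RNA of 1 mouse or of a pool, so p-values cover only the spread between these samples, which may be technical.

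In the acute phase response, interleukin-6, interleukin-1 and tumour necrosis factor act through STAT3, NF-kappaB and the C/EBP factors on hepatocytes, which then release scavengers of haemoglobin, haem, iron and lipid into plasma. Proteins that rise in this way are called positive, and those that fall, such as albumin and transthyretin, negative acute phase proteins. Adipocytes and the macrophages of fat make some of the same proteins, among them haptoglobin, serum amyloid A3 and lipocalin 2.

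Values are MAS5 signals, linear intensities of a probe set that can be compared between arrays but not between genes. Signals were compared on the log2 scale with limma across 14707 probe sets, after the dimmest 35% had been left out, and a call means a Benjamini-Hochberg adjusted p below 0.05 over all of them. Calls were frequent in this comparison. Of the tested probe sets, 46.6% passed, 25.6% higher and 21.0% lower after TSR, and the groups did not overlap in 56.6%. Median signals were 136 to 141 on TSR arrays and 127 to 131 on control arrays. A sign of RNA quality or labelling also moved with the groups. The log2 difference between 5′ and 3′ control probe sets was 0.13 ± 0.05 after TSR and -0.52 ± 0.07 in control for Gapdh, and -0.67 ± 0.001 after TSR and -1.22 ± 0.01 in control for actin (SD, n = 3 each), and its part in the changes below was not tested. The adipocyte markers Adipoq and Fabp4 were among the brightest probe sets in both groups, with mean signals of 13080 and 16823 after TSR and 18072 and 22601 in control, as the tissue label states. By mean signal, 31 of 33 markers of hepatocytes (liver cells) on the array were higher after TSR. No share over all probe sets was computed for this count. Markers of macrophages were called lower for 17 of 18 tested, against 23.0% of all tested genes.

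Of the 18 acute phase probe sets, 13 were bright enough to be tested, and they cover 7 genes. They were called in 12 of 13 cases, 4 higher and 8 lower after TSR, and the groups did not overlap in any of the 13. Over all 18 the groups did not overlap in 14, where 42.8% of all 22626 probe sets showed this. Of the 8 lower ones 7 belong to the single gene Cp, so these counts are not counts of independent genes. Hpx and Saa4 passed the signal filter only through the TSR arrays and so had to differ. The 5 dimmer probe sets belong to Saa1, Saa2, Saa4 and Apcs. By direction, both sets of genes were mixed. Among the fat genes Hp fell, Lcn2 rose and Saa3 did not pass, and among the liver genes Hpx, Saa4 and Orm1 rose while Cp fell.

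**Figure D1:**
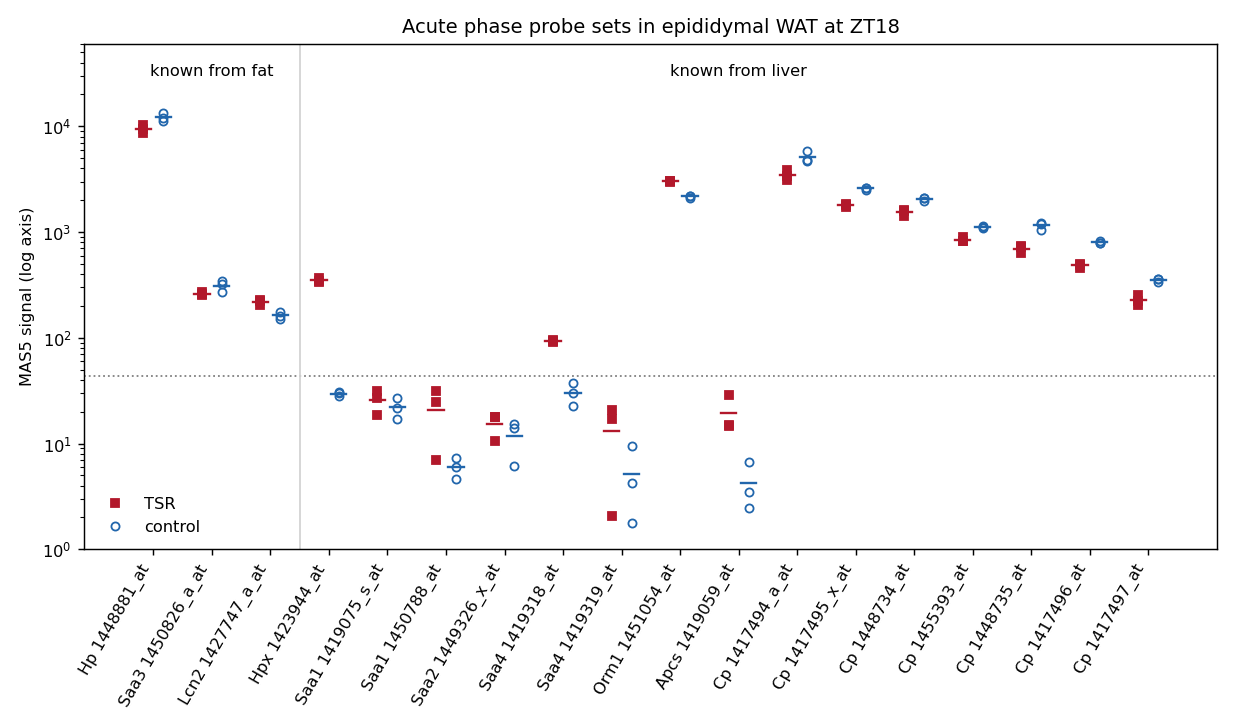
MAS5 signal (log axis) of each of the 18 acute phase probe sets on 3 TSR arrays (filled squares) and 3 control arrays (open circles), with group means as short lines; the dotted line marks the lowest mean signal that was tested. Hp and Cp lie lower and Lcn2, Hpx, Saa4 and Orm1 higher on the TSR arrays, and most Saa1, Saa2 and Apcs signals are dim in both groups.

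Hp encodes haptoglobin, which binds free haemoglobin in plasma and is secreted by adipocytes as well as by the liver. Its signal was 9386, 10212 and 8597 on the TSR arrays and 12012, 13409 and 11328 on the control arrays. Every TSR array lay below every control array. The means were 9399 ± 808 after TSR and 12249.7 ± 1061 in control (SD, n = 3 each), and Hp fell by 0.38 on the log2 scale (standard error, SE, 0.08, limma adjusted p = 0.0044). Bright probe sets were lower after TSR as a class, however. Of 217 tested probe sets with a mean log2 signal above 13, the class that holds Hp, 84.8% were called lower and 2.30% higher, and their median log2 fold change was -0.34. After quantile normalization, which gives all arrays one distribution and with which 21.1% of the tested probe sets were higher and 23.0% lower, the log2 fold change of Hp was -0.08 (adjusted p = 0.14 from limma). The part of this shared shift of bright probe sets in the fall of Hp was not tested.

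Saa3 encodes the serum amyloid A protein that mice make outside the liver, in macrophages and adipocytes. It gave signals of 252, 257 and 269 on the TSR arrays and of 270.5, 319 and 344 on the control arrays. The groups did not overlap, but the highest TSR array and the lowest control array were close. Its log2 fold change was -0.26 (SE 0.10, 95% confidence interval -0.48 to -0.04), and it did not pass in limma (adjusted p = 0.057). Saa3 passed after median centring (-0.36, adjusted p = 0.015 from limma) and quantile normalization (-0.35, 0.020), with the replicate number as a block (-0.26, 0.035) and without control replicate 1 (-0.35, 0.013). Its call changed with the scaling and with 1 control array.

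Lcn2 encodes lipocalin 2, which withholds iron from bacteria by binding their siderophores and is made by adipocytes, neutrophils and stressed epithelia. Its signals were 223, 229 and 206 after TSR, all above the control signals of 177, 161 and 152. Lcn2 rose by 1.34 times in mean signal, with a log2 fold change of 0.43 (SE 0.10, limma adjusted p = 0.0064). It was the one fat gene of the list that rose, and it passed in each of the 15 other settings tried, with log2 fold changes between 0.32 and 0.49. Of 15 neutrophil markers on the array 5 were bright enough to be tested, and 4 of them fell (23.0% of all tested genes fell). Of these Camp passed the filter only through the control arrays. Among the 4 was Prtn3, the most changed and the brightest of those tested, with 184 ± 2.81 after TSR and 611 ± 11.6 in control. The calprotectin genes S100a9 and S100a8 had 45.4 ± 5.16 and 158 ± 18.7 after TSR and 105 ± 4.60 and 243 ± 15.2 in control (SD, n = 3 each). By mean signal 5 of the 15 markers were higher after TSR. Among them the dim markers Ltf and Cd177, named after their values were seen, were higher on every TSR array than in control. Ltf gave 32.9, 19.4 and 23.6 after TSR and 7.59, 11.4 and 6.48 in control. Cd177 lay below the 25th percentile on every array. The part of neutrophils in the rise of Lcn2 was not tested.

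The start sites of these 2 fat genes are shown because both hold the letters TTGCNNAA, a form of the site that C/EBP factors can bind. In the promoter sequences from RefSeq (build GRCm38.p6, 250 bases before to 50 after the start, written 5′ to 3′ along the gene), capitals mark this word on either strand.
Saa3 promoter, chr7:46715627-46715926, minus strand: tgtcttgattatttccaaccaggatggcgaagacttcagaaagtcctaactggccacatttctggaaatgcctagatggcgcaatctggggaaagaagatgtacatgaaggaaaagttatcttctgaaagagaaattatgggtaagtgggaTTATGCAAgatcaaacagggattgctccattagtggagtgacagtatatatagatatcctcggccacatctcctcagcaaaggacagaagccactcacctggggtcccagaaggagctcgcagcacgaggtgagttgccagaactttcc
Lcn2 promoter, chr2:32387690-32387989, minus strand: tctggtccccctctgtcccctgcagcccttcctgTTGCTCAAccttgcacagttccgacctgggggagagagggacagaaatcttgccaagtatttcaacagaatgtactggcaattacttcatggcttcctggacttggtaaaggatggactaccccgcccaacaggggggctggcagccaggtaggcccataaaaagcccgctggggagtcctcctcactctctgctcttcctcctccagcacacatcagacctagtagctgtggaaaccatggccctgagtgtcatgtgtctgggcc
The word occurs in 7 of 9 promoter windows for 8 of the 10 members (Hp and Orm1 had no entry), and in 10.8% of 32851 mouse promoters of the same length. It was chosen with the sequences in view, and a match is no evidence of binding. The STAT word TTCNNNGAA occurred in 1 of the 9 windows (8.30% of all promoters), that of Apcs, and an NF-kappaB word of 3 G, 2 free positions, 3 T and 2 C in 0 (1.63%). No window held overlapping matches of different words.

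Hpx showed the largest change of the tested members. It encodes hemopexin, a liver plasma protein that binds free haem and delivers it to LRP1 on cells. Its signals were 344, 366 and 335 on the TSR arrays and 28.1, 31.0 and 29.9 on the control arrays. Within each group the 3 arrays lay close together, and the groups were far apart. The mean was 348 ± 15.7 after TSR and 29.7 ± 1.48 in control (SD, n = 3 each), a ratio of 11.7 and a log2 fold change of 3.55 (SE 0.12, 95% confidence interval 3.29 to 3.82, adjusted p = 1.5e-07 from limma). The control signals stood just above the 25th percentile of their arrays (20.9 to 24.3). They lay below the lowest signal tested, so Hpx was tested only through the TSR arrays and had to differ. Without the filter it passed as well (limma, adjusted p = 3.3e-06).

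Hepatocyte markers moved with Hpx. The albumin gene Alb had signals of 3178, 3360 and 3077 after TSR and of 128, 98.0 and 161 in control. Of 33 hepatocyte markers on the array, 30 were higher on every TSR array than on every control array. Over all 22626 probe sets the groups did not overlap, in either direction, in 42.8%. Of the markers 12 were below the 25th percentile on all control arrays, and 0 on all TSR arrays. For this last count no share over all probe sets was computed. The summed signal of the list was 28343 to 31945 after TSR and 18632 to 22568 in control, and much of it came from Cyp2e1, which fell (12455 after TSR, 16621 in control). Of the 17 tested hepatocyte markers 8 passed the signal filter only through the TSR arrays and so had to differ, so no median over them is given. Their part in the rise of Hpx was not tested. In tissue RNA, more cells of a type cannot be told apart from more RNA of a gene per cell.

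The Hpx promoter, also from RefSeq, is shown as the start of the most changed member, with the same word in capitals.
Hpx promoter, chr7:105600067-105600366, minus strand: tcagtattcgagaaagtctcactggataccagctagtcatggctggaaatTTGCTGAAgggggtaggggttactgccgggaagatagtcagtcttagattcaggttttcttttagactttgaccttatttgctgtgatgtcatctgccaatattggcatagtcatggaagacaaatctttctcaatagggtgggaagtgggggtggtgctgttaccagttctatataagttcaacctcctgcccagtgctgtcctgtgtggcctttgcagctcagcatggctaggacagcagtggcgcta

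Over the 6 arrays the log2 signal of Hpx ran most nearly in parallel with Apoc3 (Pearson r = 1.0), Mid1ip1 (0.9998) and Elovl6 (0.9998), each by its brightest probe set among 8619 genes. Apoc3, an apolipoprotein of liver and intestine, had a mean signal of 628 after TSR and 91.5 in control, whereas Mid1ip1 and Elovl6, a regulator and an elongase of fatty acid synthesis, had mean signals of 5518 and 1742 after TSR and of 2005 and 403 in control. The nearest genes to Hp were Apoe (r = 0.999), Scd1 (0.998) and Lgals1 (0.998), all of them bright. Those nearest to Lcn2 were Nubp1 (0.997), Denn2b (0.996) and Clock (0.996), and those nearest to Saa3 were Man1b1 (0.996), Septin10 (0.993) and Faim (0.992). With 2 groups of 3 arrays, any gene that separates the groups by a like margin gives such a value, so these describe only the arrays.

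The liver-type serum amyloid A genes were dim. Saa1 and Saa2 encode the acute phase forms that replace apolipoprotein A-I on HDL during inflammation, and Saa4 a form that is made constitutively. These genes lie beside each other and beside Saa3 on chromosome 7. The probe sets of Saa1 and Saa2 cannot be kept apart: 1419075_s_at is annotated as Saa1 and 1449326_x_at as Saa2, yet both carry one accession, which RefSeq lists for Saa2. Their promoters are shown because the genes are near copies also there, with 287 of 301 aligned positions identical (95.3%), against 54.2% between Saa1 and Saa3. Capitals mark TTGCNNAA.
Saa1 promoter, chr7:46742931-46743230, minus strand: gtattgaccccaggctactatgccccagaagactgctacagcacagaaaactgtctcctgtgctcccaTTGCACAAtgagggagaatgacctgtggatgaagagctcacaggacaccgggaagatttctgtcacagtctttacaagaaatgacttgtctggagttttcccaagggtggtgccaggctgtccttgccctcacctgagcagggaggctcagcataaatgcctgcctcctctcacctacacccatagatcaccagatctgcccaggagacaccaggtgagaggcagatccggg
Saa2 promoter, chr7:46751583-46751882, plus strand: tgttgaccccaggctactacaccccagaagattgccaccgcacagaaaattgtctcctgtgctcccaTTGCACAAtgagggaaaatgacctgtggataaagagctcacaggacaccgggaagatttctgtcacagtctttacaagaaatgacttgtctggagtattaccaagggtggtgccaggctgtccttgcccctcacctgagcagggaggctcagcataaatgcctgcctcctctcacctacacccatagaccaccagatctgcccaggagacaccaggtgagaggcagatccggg
Both hold the word once, and as near copies they do not count as independent matches.

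Probe set 1419075_s_at gave 18.5, 27.1 and 31.2 after TSR and 21.7, 17.2 and 27.0 in control, and 1449326_x_at gave 18.0, 10.6 and 17.8 after TSR and 15.2, 6.13 and 13.9 in control. The groups overlapped in both. The other Saa1 probe set, 1450788_at, gave 31.2, 7.0 and 24.5 after TSR and 4.58, 6.03 and 7.37 in control, so that 2 TSR arrays lay above the controls and TSR replicate 2 among them. Without the filter none of these 3 passed (limma, adjusted p = 0.71, 0.56 and 0.11, in that order). At these dim signals a change of the inducible liver forms was not detectable.

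Saa4 rose by the brighter of its probe sets. It gave 92.0, 93.7 and 96.2 on the TSR arrays and 37.0, 22.5 and 29.8 on the control arrays, with every TSR array above every control array. The means were 94.0 ± 2.11 after TSR and 29.8 ± 7.25 in control (SD, n = 3 each), with a log2 fold change of 1.69 (SE 0.21, limma adjusted p = 2.6e-04). The other probe set, 1419319_at, gave 2.06, 20.7 and 17 after TSR and 4.22, 1.79 and 9.57 in control, below the 25th percentile on all 6 arrays and with overlap. On the control arrays the brighter probe set lay above that percentile but below the lowest signal tested. It was therefore tested only through the TSR arrays and had to differ. Without the filter it passed as well (limma, adjusted p = 0.0016). The hepatocyte markers described beside Hpx were higher in the same arrays, and their part was not tested.

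Apcs encodes serum amyloid P component, a pentraxin that is a main acute phase protein of mice. Its signals were 28.7, 15.0 and 14.6 after TSR and 2.46, 6.77 and 3.45 in control. All control signals and those of 2 TSR arrays lay below the 25th percentile, so no fold is given, although the groups did not overlap (two-sided exact permutation test, p = 0.1, and 3 against 3 arrays cannot give a smaller one). Without the filter, in the fit of all 22626 probe sets where 28.3% were called and 16.0% were higher, Apcs passed (limma, adjusted p = 0.019). When each signal below the 25th percentile of its array was set to that percentile, its log2 difference was 0.19.

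Orm1 encodes orosomucoid 1 (alpha-1 acid glycoprotein), a carrier of lipids and drugs that dampens inflammation and is made in fat as well as in liver. It was bright in both groups, with 2956, 3068 and 3018 after TSR and 2207, 2104 and 2194 in control. The groups were separate and the spread within each was small. Orm1 rose by 1.39 times in mean signal, with a log2 fold change of 0.48 (SE 0.04, 95% confidence interval 0.38 to 0.57, adjusted p = 3.6e-05 from limma). Its rise ran against its brightness class, since of 1006 tested probe sets with a mean log2 signal of 11 to 12, 18.7% were called higher and 35.7% lower. Orm1 lies beside its paralogues Orm2 and Orm3, whose transcripts are similar, so the signal may not belong to Orm1 alone. Orm3 rose as well (181 ± 33.5 after TSR, 131 ± 12.6 in control, SD, n = 3 each, adjusted p = 0.031 from limma), and Orm2 was too dim to be tested.

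Cp encodes ceruloplasmin, the copper protein that oxidises ferrous iron and carries most plasma copper, and that other tissues also make in a membrane-anchored form. It fell by all 7 of its probe sets. The brightest, 1417494_a_at, gave 3386, 3856 and 3094 after TSR and 4800.4, 5817 and 4656 in control. The probe set 1417496_at, less bright, gave 504, 462 and 488 after TSR and 788, 793 and 824 in control. In each of the 7 every TSR array lay below every control array, and the mean signal after TSR was 0.60 to 0.76 times that in control. Log2 fold changes ranged from -0.73 to -0.40 with a median of -0.56 (SE 0.04 to 0.10, adjusted p = 1.5e-05 to 0.0018 from limma). These probe sets report 1 gene, 6 of them from one accession, and so repeat the measurement rather than the experiment.

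Dimmer probe sets of Cp fell as well as its bright ones. The dimmest, 1417497_at, gave 253, 203 and 224 after TSR and 357, 337 and 363 in control, a log2 fold change of -0.64. In its brightness range (mean log2 signal 8 to 9, 2832 tested probe sets) the median log2 fold change was 0.07, with 18.3% called lower. After quantile normalization the 7 log2 fold changes lay between -0.79 and -0.42 and after median centring between -0.84 and -0.50, and all passed in both. The part of the shared shift of bright probe sets in the fall of Cp was not tested. Macrophage markers moved the same way as Cp. They fell in 17 of 18 tested, against 23.0% of all tested genes, with a median log2 fold change of -0.56. Their summed signal was 27198 to 28789 after TSR and 41405 to 43335 in control, and their part was not tested.

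**Figure D2:**
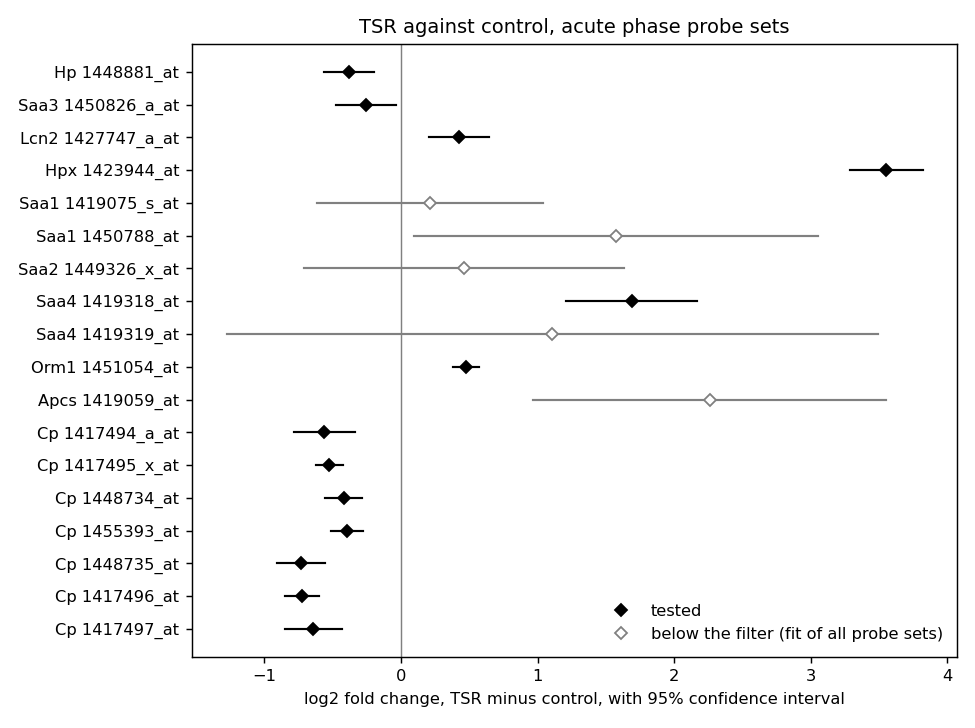
Log2 fold change (TSR minus control) of each acute phase probe set with its 95% confidence interval; filled diamonds are tested probe sets, open ones are dim probe sets from the fit of all probe sets. All 7 Cp probe sets lie between -0.73 and -0.40, while Hpx lies at 3.55 and the dim Saa1, Saa2 and Saa4 probe sets have wide intervals.

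Other positive acute phase genes moved in both directions. Of 23 on the array 12 were tested, and 8 rose, 3 fell and 1 did not pass (47.0% of all tested genes were called, 24.0% higher and 23.0% lower). Of the 12, Hamp, Serpina1b and Plg passed the filter only through the TSR arrays and so had to differ. The count that rose was 14 without the filter and 5 with a filter on the dimmest 50%, with 3 that fell in both. Among the tested genes the largest rises were in Serpina1c and Serpina1b, the alpha-1 antitrypsin genes, with log2 fold changes of 5.47 and 4.29, followed by the plasminogen gene Plg (3.22) and Hamp, which encodes the iron hormone hepcidin (1.81). Serpina1c had a signal of 3049 ± 185 after TSR and 69.0 ± 8.27 in control (SD, n = 3 each). The fibrinogen genes Fga, Fgb and Fgg and the protease inhibitor gene Pzp were too dim over the 6 arrays to be tested, with mean signals of 170, 165, 197 and 240 after TSR and of 13.1, 1.61, 9.39 and 7.71 in control. The brightest gene of the list, the metallothionein gene Mt1, did not pass (9160 ± 576 after TSR, 10121.6 ± 574 in control, adjusted p = 0.089 from limma). The 3 that fell were Cd14, Cfb and Mt2. Smaller rises were found for Lbp and Serpina3n (these 5 genes, Pzp and the fibrinogen genes were named after their values were seen). Lbp, the binding protein of bacterial lipopolysaccharide, had 1688 ± 170.0 after TSR and 1053 ± 12.9 in control, and Serpina3n, a protease inhibitor, had 1911 ± 64.3 after TSR and 1662 ± 62.3 in control (SD, n = 3 each, adjusted p = 8.4e-05 and 0.0076 from limma).

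Negative acute phase genes were higher too. Of 6 tested, 5 rose and 1 did not pass (24.0% of all tested genes rose). Of the 5, Apoa1 and Serpinc1 passed the filter only through the TSR arrays and so had to differ. Ttr, Apoa1, Alb and Apoa2 had log2 fold changes of 5.29, 4.83, 4.66 and 3.92. The value of Apoa1 rests on control signals of 35.6, 43.9 and 12.5, and the last of these is under the 25th percentile for control replicate 3. The retinol carrier gene Rbp4, which adipocytes make in quantity, had 8729 ± 537 after TSR and 8610.2 ± 279 in control (SD, n = 3 each, adjusted p = 0.81 from limma). Of the 10 negative genes on the array 6 also stand on the list of hepatocyte markers, as do 3 of the 23 positive ones.

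The signalling genes of the acute phase response were lower more often than higher. Of 29 on the array 23 were tested, and 3 rose, 10 fell and 10 did not pass, with a median log2 fold change of -0.11. Of all tested genes 47.0% were called, 24.0% higher and 23.0% lower. Socs3, the feedback inhibitor that STAT3 induces, had 161, 131 and 129 after TSR and 307, 347 and 374 in control (log2 fold change -1.29, SE 0.12, limma adjusted p = 4.2e-05). Cebpd, which encodes C/EBPδ, fell to 403 ± 28.8 after TSR, against 769 ± 22.8 in control, and the receptor subunit gene Il6st to 1938 ± 168 against 2933 ± 107 (SD, n = 3 each). Nfkbia, the NF-kappaB inhibitor that is itself a target of NF-kappaB, had a log2 fold change of -0.60. The brightest of the list, Cebpa, the C/EBP factor of mature adipocytes, rose to 4798 ± 74.1 after TSR, against 3648 ± 208 in control. Interleukin-6 itself (Il6, named after its values were seen) was below the 25th percentile on all 6 arrays. With each gene taken as the average over its probe sets, 6 signalling genes fell and 3 rose, and after median centring 13 fell and 1 rose.

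Receptors and partners of the scavenger proteins moved in both directions. Of 19 tested, 2 rose, 6 fell and 11 did not pass, a share called near the 47.0% of all tested genes (after quantile normalization 4 rose and 4 fell). Cd163, the macrophage receptor for haptoglobin with haemoglobin, fell to 847 ± 25.5 after TSR, against 1211 ± 57.7 in control (SD, n = 3 each). Lrp1, the hemopexin receptor gene, which was named for its role, did not pass (log2 fold change 0.15, adjusted p = 0.10 from limma). Hmox1, which encodes the haem-degrading enzyme haem oxygenase 1, rose (log2 fold change 0.72, SE 0.15, limma adjusted p = 0.0046). In iron transport, Tfrc, the transferrin receptor gene, rose (0.75). For the control probe sets of the same transcript the log2 difference between 5′ and 3′ was -2.30 ± 1.18 after TSR and -3.99 ± 0.94 in control (SD, n = 3 each), and the part of this in the rise was not tested. Slc40a1, the gene of the iron exporter ferroportin that works with ceruloplasmin, fell to 352 ± 42.4 after TSR, against 574 ± 22.9 in control. The ferritin gene Fth1, the brightest of the list, had 13911 ± 575 after TSR and 16195 ± 529.7 in control, within the class of bright probe sets that were lower.

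**Figure D3:**
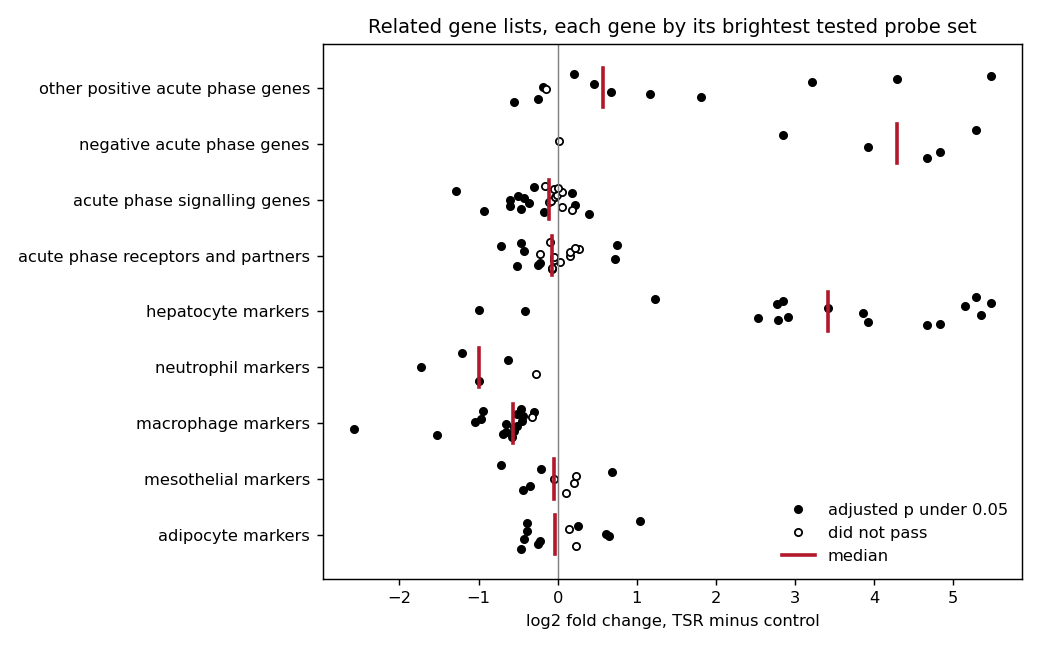
Log2 fold change (TSR minus control) of each tested gene in 4 acute phase lists and 5 cell type lists, by its brightest probe set; filled points passed an adjusted p of 0.05, open points did not, and red lines are medians, which in the hepatocyte, positive and negative lists include genes that passed the filter only through the TSR arrays. Hepatocyte markers and both lists of other acute phase genes reach above 5, while the signalling and receptor lists centre near 0 (medians -0.11 and -0.07).

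Mesothelial cells, which cover epididymal fat, are a further cell type the tissue can hold. Of 9 tested mesothelial markers 1 rose and 4 fell (47.0% of all tested genes were called, 24.0% higher and 23.0% lower). Their summed signals were 6932 to 7458 after TSR and 8201 to 9496 in control. Much of these sums came from Efemp1, the brightest of the list, which fell (3682 after TSR, 5028 in control). Adipocyte markers were split, with 4 higher and 6 lower of 12 tested, and summed to 95429.5 to 110419.7 after TSR and 109695 to 128837 in control. After quantile normalization 6 adipocyte markers were called higher and 0 lower. The part of these cell types in the values of Hp, Saa3 and Lcn2 was not tested.

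**Figure D4:**
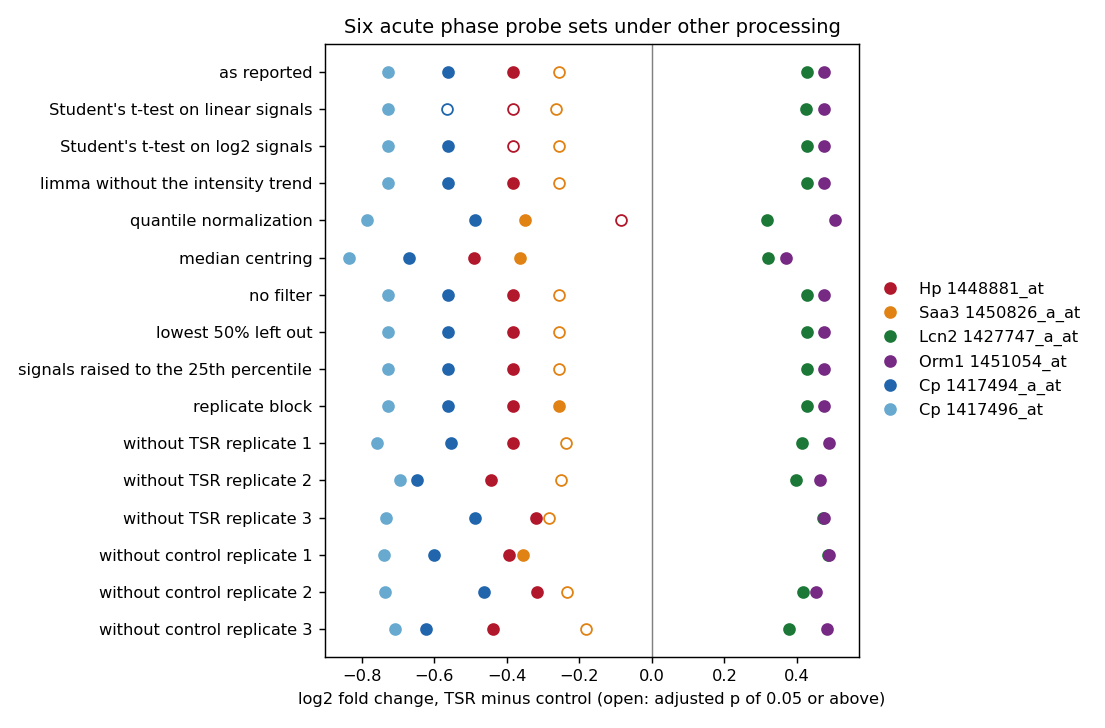
Log2 fold change (TSR minus control) of 6 acute phase probe sets, as reported and under 15 other settings down the page; filled points passed an adjusted p of 0.05. Hp moves to -0.08 after quantile normalization, Saa3 passes in 4 settings, and Lcn2, Orm1 and Cp keep their direction throughout.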

How the data were processed

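RNA of epididymal WAT was hybridised to Affymetrix mouse expression arrays, 1 for each of 3 TSR and 3 control samples. The authors computed signals with MAS5 in Affymetrix Expression Console (version not given in the sources used here), and the deposited table holds these as linear intensity values. The scaling target is not given in the sources used here. The methods name RNAlater and a column kit, the labels frozen tissue and Trizol. Symbols came from GEO's platform annotation, with 1 symbol for 20393 probe sets, several for 691 and none for 1606. Signals were taken to log2. Left out were 64 control probe sets and, of the remaining 22626, the 35% with the lowest average log2 signal (up to 5.45), since expression calls were not used here. TSR was compared with control by limma 3.58.1 in R 4.3.3 (intensity trend, two-sided, Benjamini-Hochberg), after tests on simulated data. Lists used each gene's brightest tested probe set. All members were named. Of each acute phase list and of the neutrophil list the 4 called genes with the largest change and the brightest gene were named, with exceptions stated in the text. Of hepatocyte markers Alb and the brightest were named, and of adipocyte markers only Adipoq and Fabp4. Of mesothelial markers only the brightest was named, and the macrophage list was described only as a whole. Alternatives were the methods' t-test on linear and on log2 signals, no trend, quantile normalization, median centring, no filter, a 50% filter, a floor at the 25th percentile, the replicate number as a block, the average over the probe sets of a gene, and each array left out in turn. The brightness classes and promoter words were chosen with the values or sequences in view. The members and lists were chosen with earlier results of these data known. The number of arrays limits the precision.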

Additional observations from a re-analysis of the deposited data

How the results depend on the processing

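No acute phase probe set reversed its direction under the alternatives run for it (15 for most tested ones, 14 for Hpx and Saa4, 10 for the 5 dim ones), and 10 of the 13 tested acute phase probe sets passed in each one that gave them a value. Hp lost its call after quantile normalization (log2 fold change -0.08, adjusted p = 0.14 from limma) and in the methods' t-test (adjusted p = 0.056 on linear and 0.054 on log2 signals), as did the brightest Cp probe set in the methods' t-test on linear signals (0.051). Saa3 gained a call in 4 alternatives. When the filter took away the dimmest 50%, Hpx and Saa4 were no longer tested, so 2 acute phase probe sets were higher instead of 4. The count of higher cell type markers was 20 as reported, 13 with the 50% filter and 36 without the filter. Of the 20, 15 were hepatocyte markers. Of 17 tested hepatocyte markers 8 passed the filter only through the TSR arrays and so had to differ. Of all tested genes 24.0% were higher as reported. Leaving out single arrays gave 12 to 13 called acute phase probe sets, 4 higher and 8 to 9 lower. With the replicate number as a block 13 passed, Saa3 included. Deviations of same-numbered arrays from their group means correlated with r = 0.02, 0.19 and 0.17 for numbers 1, 2 and 3. For arrays of different numbers r lay between -0.22 and 0.06. With 3 arrays a group these values cannot settle whether the numbers pair the arrays. Median centring lowered every log2 fold change by 0.11, and 16.7% of tested probe sets were then higher and 29.7% lower, against 25.6% and 21.0% as reported. Signals near the 25th percentile of an array limit what can be said of Saa1, Saa2 and Apcs. Saa2 and the dimmer Saa4 probe set lay below that percentile on every array. There the floor replaced all their signals, so that setting could not test their direction.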
